A study of Homo sapiens with 18 samples.

Results

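Expression of MKI67, of both topoisomerase II genes and of 7 condensin genes was examined in U87 cells, a human glioblastoma line, under Erastin treatment. The 10 genes were fixed by name (MKI67, TOP2A, TOP2B, SMC2, SMC4, NCAPD2, NCAPG, NCAPH, NCAPD3 and NCAPG2) and matched by Ensembl identifier to rows of a table of 58302 genes; all 10 were found, each in a single row. RNA of 4 libraries had been sequenced, 2 replicates of cells under normal growth conditions and 2 of cells given 10 μM Erastin for 72 h. Erastin is widely used to trigger ferroptosis, a form of cell death marked by lipid peroxidation. Both groups are the same unmodified line, so the comparison concerns 1 cell line, 1 dose and 1 time. The study's methods name DMSO as the control of the protein blots, whereas the labels of the RNA controls name no vehicle. The labels do not say whether the replicates came from separate cultures, so the p-values measure the spread between these libraries only.

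Library totals lay between 29412656 and 31513519 counts, and the 10 genes together made up 0.17% and 0.173% of the control totals and 0.0473% of each Erastin total. Of the markers fixed for the line, VIM and CD44 were abundant in all 4 libraries. They fell by 0.60 and 0.36 on the log2 scale (edgeR adjusted p = 1.27e-05 and 6.44e-04). The astroglial markers S100B (0 to 2 counts a library), SOX2 (0 to 6) and GFAP (41 to 81) were at or near 0. NES fell from 36.5 ± 7.41 to 2.98 ± 0.749 CPM (SD, n = 2, edgeR adjusted p = 3.97e-08). The 6 markers of the line summed to 3994 and 3920 CPM in control and 2670 and 2859 CPM in Erastin libraries. CPM denotes counts scaled to a common library size with edgeR's TMM factors. Summed over 3 markers each, leukocyte genes lay between 0.267 and 0.7 CPM and epithelial genes between 0.0981 and 0.468 CPM, with CD3E, KRT5 and CDH1 at 0 in all libraries. Endothelial markers summed to 4.64 and 6.18 CPM in control and 1.64 and 2.07 CPM in Erastin libraries. The control sums were chiefly PECAM1, which fell by 2.34 on the log2 scale (edgeR adjusted p = 4.81e-05). In Erastin replicate 2, PECAM1 had 1.05 CPM and VWF 1.02 CPM. VWF moved the other way, from 4 counts in each control library to 17 and 32 in Erastin libraries (log2 fold change 2.58, edgeR adjusted p = 0.0125), and CDH5 had 1 count in 1 library. Neuronal markers summed to 71.0 and 70.2 CPM against 82.8 and 96.3 CPM, but did not move together: MAP2 rose by 0.61 (edgeR adjusted p = 1.94e-04), SYT1 fell by 0.98 (edgeR adjusted p = 1.05e-04) and RBFOX3 had 2 to 9 counts a library. The part of these marker shifts in the results below was not tested.

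The 10 genes act on the shape of mitotic chromosomes. MKI67 encodes Ki-67, a large protein that coats mitotic chromosomes, keeps them apart and serves as a standard mark of proliferating cells. Type II topoisomerases pass one DNA double strand through another; TOP2A is made mainly by dividing cells and untangles sister chromatids, whereas TOP2B is made by dividing and resting cells alike. Condensins are ring-shaped ATPases that fold chromatin into loops. SMC2 and SMC4 form the ATPase core of both condensins, condensin I adds NCAPD2, NCAPG and NCAPH, and condensin II adds NCAPD3, NCAPG2 and NCAPH2. NCAPH2 is not among the 10 genes and is given for comparison.

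Because the genes fell together but to different extents, the sequence in front of their starts was examined. RefSeq promoters of GRCh38.p14, from 250 bases before to 50 after a gene start, were listed for all 10 genes, with 2 starts for TOP2B, SMC2, SMC4 and NCAPD3, or 14 promoters in all. Those of MKI67 and TOP2A, the most strongly lowered genes, of NCAPG, a strongly lowered condensin I gene, and of TOP2B, the least lowered gene, are printed 5′ to 3′ on the strand of the gene. Capitals mark CHR elements, a motif known from promoters of G2/M genes, and CCAAT boxes, the motif of the factor NF-Y. The CHR letters searched were TTTGAA and, as a variant, TTCGAA. Both strands were searched for each motif, so that a CCAAT box on the other strand reads ATTGG here.
MKI67, chr10:128126374-128126673, minus strand: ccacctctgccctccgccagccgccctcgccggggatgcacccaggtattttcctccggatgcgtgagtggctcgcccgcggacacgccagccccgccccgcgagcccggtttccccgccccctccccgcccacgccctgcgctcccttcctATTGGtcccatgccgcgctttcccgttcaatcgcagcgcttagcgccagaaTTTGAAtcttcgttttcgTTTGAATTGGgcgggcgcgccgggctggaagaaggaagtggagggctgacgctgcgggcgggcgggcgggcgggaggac
TOP2A, chr17:40417847-40418146, minus strand: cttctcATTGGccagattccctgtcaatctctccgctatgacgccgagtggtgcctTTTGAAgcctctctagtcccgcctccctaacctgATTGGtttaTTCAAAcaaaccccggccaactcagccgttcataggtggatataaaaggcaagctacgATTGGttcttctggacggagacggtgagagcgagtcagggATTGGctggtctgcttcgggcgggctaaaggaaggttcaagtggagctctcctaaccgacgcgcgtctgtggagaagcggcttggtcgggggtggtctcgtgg
NCAPG, chr4:17810729-17811028, plus strand: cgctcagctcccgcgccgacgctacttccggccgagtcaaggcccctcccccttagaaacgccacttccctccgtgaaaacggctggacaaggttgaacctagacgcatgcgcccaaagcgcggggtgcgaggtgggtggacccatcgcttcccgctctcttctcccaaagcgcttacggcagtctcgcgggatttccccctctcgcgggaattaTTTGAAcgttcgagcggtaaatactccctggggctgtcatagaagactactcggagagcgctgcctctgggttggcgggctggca
TOP2B, chr3:25664858-25665157, minus strand: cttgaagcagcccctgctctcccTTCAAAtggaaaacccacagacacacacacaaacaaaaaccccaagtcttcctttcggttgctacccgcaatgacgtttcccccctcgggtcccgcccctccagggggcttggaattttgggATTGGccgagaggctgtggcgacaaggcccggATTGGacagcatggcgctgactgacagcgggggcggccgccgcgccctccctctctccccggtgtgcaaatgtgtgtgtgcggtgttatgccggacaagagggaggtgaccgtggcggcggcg

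MKI67 held CHR letters 47 and 29 bases before the start, the nearer of which shared 1 base with a CCAAT box that began 24 bases before the start. TOP2A held 4 CCAAT boxes, at −244, −160, −93 and −53, and CHR letters at −194 and −151. NCAPG held 1 CHR element at −35 and no CCAAT box. The printed promoter of TOP2B held CHR letters at −227 and CCAAT boxes at −105 and −73, and its other listed promoter held neither motif.

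CHR letters on either strand were present in 9 of the 14 promoters, belonging to 9 of the 10 genes. The exception was NCAPH, a condensin I gene that fell more than NCAPG and whose promoter is not printed. Among all 35116 listed promoters of the same length, 16.4% held them, and among the 16533 promoters of genes tested here, 12.4%. Among the 1584 promoters of genes called downregulated, 18.3% held them. On the strand of the gene alone they were found in 6 of the 14 promoters, of 6 genes, without TOP2B, SMC2 and SMC4. This stands against 9.7% of all promoters and 7.68% of those of tested genes. CCAAT boxes were found in 6 of the 14 promoters against 34.6% of all, and on the strand of the gene alone in 1, that of NCAPH, against 19.6%. E2F letters, which were TTCGCGC and the variants with letters TTGGCGC and with letters TTCCCGC on either strand, were found in 3, those of SMC4, NCAPG and NCAPD3, against 11% of all and 15.5% of those of tested genes, and a TATA box (TATAAA) was found in 1, that of TOP2A, against 11.5% of all. SMC4 held CHR letters at −75, SMC2 and NCAPD3 at −3, NCAPD2 at −145 and NCAPG2 at 36 bases past the start. In the last 200 bases, CHR letters were found in 7 of the 14 promoters, of 7 genes, without TOP2A and TOP2B. This stands against 10.2% of all promoters and 7.24% of those of tested genes. A match is a description of the letters and not of a bound site.

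**Figure D1:**
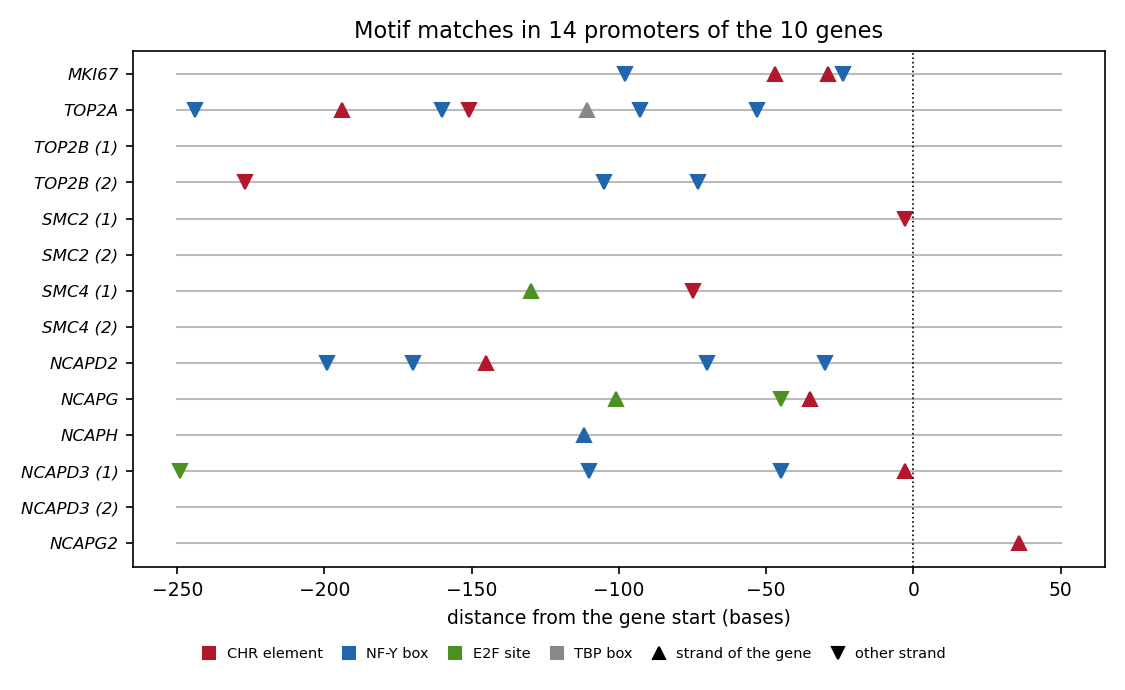
Motif matches in the 14 promoters listed for the 10 genes, by distance in bases from the gene start (dotted line). Red marks CHR elements, blue the NF-Y (CCAAT) box, green E2F letters and grey the TBP (TATA) box; upward triangles are on the strand of the gene. CHR letters occur in 9 promoters and CCAAT boxes in 6, spread from −244 to 36 bases.

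The question of the comparison was how transcription changed in Erastin-treated cells. All 10 genes were lower in Erastin-treated cells, from a log2 fold change of −3.89 for MKI67 to −0.58 for TOP2B, with a median of −2.04 beside −0.003 over the 16751 genes tested. With an adjusted p under 0.05 and a log2 fold change of −1 or less, 8 of the 10 were called downregulated by edgeR's quasi-likelihood test, beside 9.34% of all tested genes. TOP2B and SMC2 passed the test but fell by less than that threshold, so that all 10 were lower at an adjusted p under 0.05, beside 23.7% of all tested genes, and 0 were higher, beside 23.2%. In all 10 genes both Erastin libraries lay below both control libraries, which was the case for 36.9% of all tested genes, while 36.7% had both above. The genes were chosen with their fall known, so their count describes these genes and is no independent test. In RNA of whole cultures, fewer dividing cells and less RNA per dividing cell cannot be told apart.

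**Figure D2:**
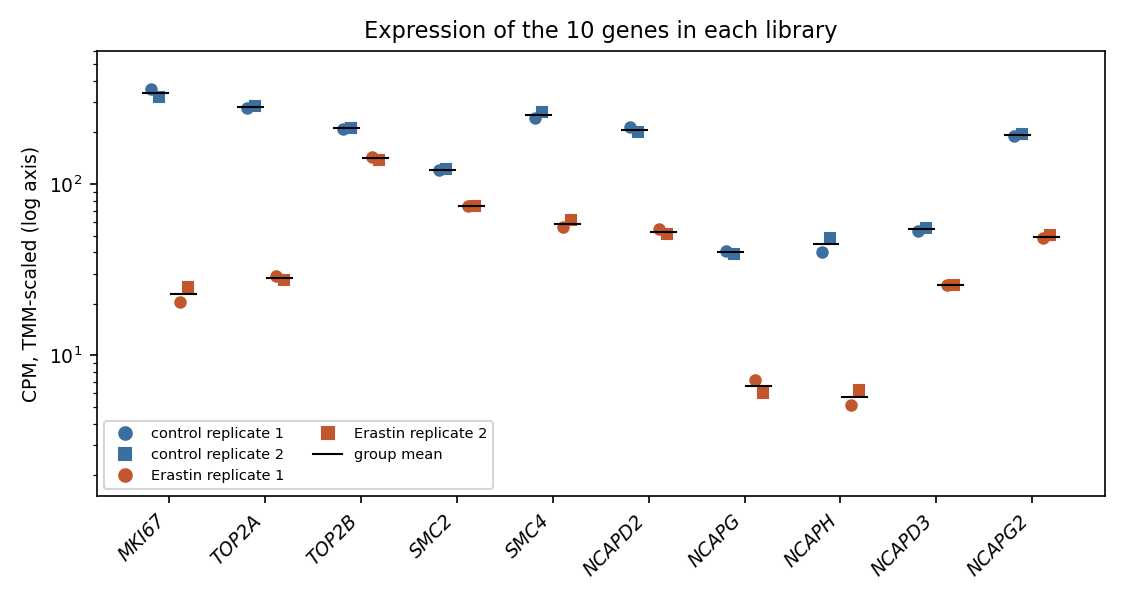
Expression of the 10 genes in each of the 4 libraries, in TMM-scaled CPM on a log axis. Circles are replicate 1, squares replicate 2 and black lines the group means (n = 2). The groups do not overlap for any of the 10 genes, and the ratio of the means is largest for MKI67 (340.2 against 22.9 CPM) and smallest for TOP2B (211 against 141 CPM).

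MKI67 (ENSG00000148773), on the minus strand of chromosome 10 (128096659 to 128126385, GRCh38) with 12807 exonic bases, had 357 and 323 CPM in the control libraries and 20.6 and 25.2 CPM in the Erastin libraries. The lower control library was more than 10 times above the higher Erastin library. Its log2 fold change was −3.89 ± 0.101 (SE, edgeR adjusted p = 2.42e-10), so that a fitted 6.74% of the control level remained. Of all tested genes only 75 had a lower log2 fold change.

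TOP2A (ENSG00000131747; chromosome 17, 40388516 to 40417950, minus strand) had 279 and 284 CPM in control and 29.2 and 27.4 CPM in Erastin libraries. The replicates of each group differed little, and the groups were 9.94-fold apart in the fit. Its log2 fold change was −3.31 ± 0.0751 (SE, edgeR adjusted p = 1.89e-10), and a fitted 10.1% of the control level remained. TOP2B (ENSG00000077097; chromosome 3, 25597905 to 25664907, minus strand) had 209 and 212 CPM in control and 144 and 138 CPM in Erastin libraries. Both Erastin libraries were lower, by a margin far larger than the difference between replicates. The log2 fold change of TOP2B was −0.58 ± 0.0658 (SE, edgeR adjusted p = 1.97e-05), and a fitted 66.9% of its control level remained.

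The core subunits of condensin did not fall alike. SMC4 (ENSG00000113810; chromosome 3, 160399274 to 160434962) had 243 and 263 CPM in control and 56.2 and 61.5 CPM in Erastin libraries. This was a log2 fold change of −2.10 ± 0.0773 (SE, edgeR adjusted p = 1.83e-09). SMC2 (ENSG00000136824; chromosome 9, 104094260 to 104141417), its partner in every condensin ring, had 120.5 and 122 CPM in control and 74.7 CPM in each Erastin library. Its log2 fold change was −0.70 ± 0.0679 (SE, edgeR adjusted p = 5.76e-06). SMC2 thus kept a fitted 61.7% of its control level, whereas SMC4 kept 23.3%.

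Each of the 3 subunits particular to condensin I was called downregulated, beside 9.34% of all tested genes. NCAPH (ENSG00000121152; chromosome 2, 96335787 to 96373845), the kleisin that closes the ring, had 40.3 and 48.5 CPM in control and 5.15 and 6.3 CPM in Erastin libraries, a log2 fold change of −2.95 ± 0.145 (SE, edgeR adjusted p = 1.90e-08). NCAPG (ENSG00000109805; chromosome 4, 17810902 to 17844862), a HEAT-repeat subunit, had 40.8 and 39.3 CPM in control and 7.19 and 6.05 CPM in Erastin libraries, a log2 fold change of −2.60 ± 0.128 (SE, edgeR adjusted p = 1.90e-08). The replicates of NCAPH were further apart than those of NCAPG in control cells, and the groups of both genes were separate. NCAPD2 (ENSG00000010292; chromosome 12, 6493356 to 6531955), the other HEAT-repeat subunit, had 214 and 201 CPM in control and 54.3 and 51.2 CPM in Erastin libraries, a log2 fold change of −1.98 ± 0.0734 (SE, edgeR adjusted p = 1.93e-09).

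The subunits particular to condensin II also fell to different extents. NCAPG2 (ENSG00000146918; chromosome 7, 158631311 to 158704829) had 191 and 196 CPM in control and 48.5 and 50.1 CPM in Erastin libraries, a log2 fold change of −1.97 ± 0.07 (SE, edgeR adjusted p = 1.48e-09). NCAPD3 (ENSG00000151503; chromosome 11, 134150119 to 134225454) had 53.5 and 55.1 CPM in control and 25.8 and 25.6 CPM in Erastin libraries. Its log2 fold change of −1.08 ± 0.0906 (SE, edgeR adjusted p = 1.62e-06) was just past the threshold on the fold change, and the call was lost in edgeR's glmTreat, which tests for a change beyond that threshold (adjusted p = 0.534). NCAPH2, the kleisin of condensin II, had 1707 and 1285 counts in control and 1185 and 1106 in Erastin libraries, or 48.6 ± 10.2 and 37.4 ± 3.12 CPM (SD, n = 2). The Erastin counts were below both control counts, but the control libraries differed from each other by more than the lower one differed from the Erastin libraries. Its log2 fold change was −0.38 (edgeR adjusted p = 0.0321), and without control replicate 1 it was −0.15 (edgeR adjusted p = 0.335). Without Erastin replicate 2 the fold change of NCAPH2 was −0.29. It was larger without control replicate 2 (−0.59) and without Erastin replicate 1 (−0.47).

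Levels of different genes were compared as TPM, the counts divided by the deposited exonic length and scaled to a common library sum. In control cells TOP2A had the highest level per length of the 10 genes, 151 ± 6.6 TPM, followed by TOP2B with 120.4 ± 4.93 TPM (SD, n = 2). NCAPD2, SMC4, NCAPG2 and MKI67 came next, from 111 ± 1.52 to 91.7 ± 3.71 TPM, and neighbours in that order overlapped between libraries. SMC2 (64.6 ± 2.34 TPM), NCAPH (46.9 ± 7.53 TPM), NCAPG (28.1 ± 0.11 TPM) and NCAPD3 (20.6 ± 1.05 TPM) followed with no overlap between neighbours. In Erastin-treated cells TOP2B led with 91.8 ± 4.07 TPM and SMC2 was next with 45.5 ± 0.617 TPM. NCAPD2 had 32.0 ± 1.77 TPM, above NCAPG2 and SMC4 (27.8 ± 0.256 and 27.4 ± 1.35 TPM), which overlapped. TOP2A stood at rank 6 with 17.3 ± 1.03 TPM, below both SMC genes, and NCAPD3 at rank 7 with 11.1 ± 0.232 TPM. MKI67 and NCAPH, with 7.04 ± 0.891 and 6.88 ± 0.884 TPM, overlapped, and NCAPG was lowest with 5.31 ± 0.72 TPM. The exonic length covers the exons of every annotated transcript, so a level per length also depends on the annotation. Reads on exons shared with another gene were not counted, but their bases are part of that length. The level of NCAPG, with 33.1% of its exonic bases shared with LCORL, may thus be too low, and its rank below NCAPH and MKI67 is uncertain. TPM is not TMM-scaled, and the fold changes above are those of the counts.

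**Figure D3:**
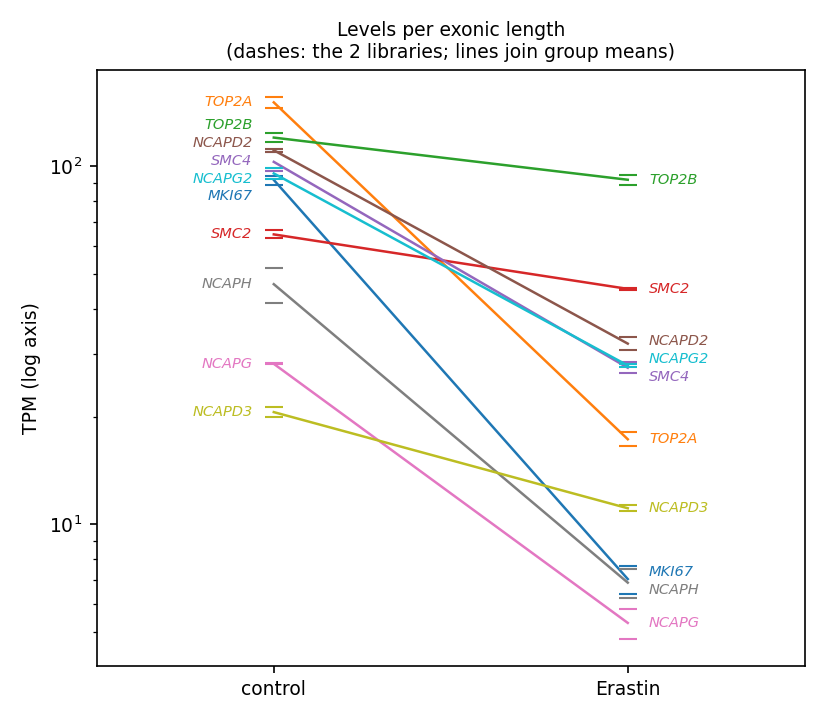
Levels of the 10 genes per exonic length, in TPM on a log axis, in control and Erastin-treated cells. Dashes are the 2 libraries of a group and lines join the group means. TOP2A crosses from the highest level (151 TPM) to rank 6 (17.3 TPM), whereas TOP2B and SMC2 have the flattest lines.

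Within a library, the ratio of the counts of 2 genes does not depend on how the library is scaled. Such log2 ratios were compared in 6 pairs, of which 5 join paralogs, counterparts or partners in a complex and the other joins MKI67 to TOP2A. TOP2A to TOP2B had log2 ratios of 0.42 and 0.42 in control and −2.30 and −2.33 in Erastin libraries, a difference of −2.73, whereas the larger SD of a group was 0.0217. Per length there were 1.25 and 1.26 transcripts of TOP2A for each of TOP2B in control libraries, and 0.191 and 0.187 in Erastin libraries. The order of the topoisomerase II genes was thus reversed in both Erastin libraries.

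SMC2 to SMC4 went from −1.01 and −1.11 to 0.41 and 0.28, a difference of 1.41 on the log2 scale in the other direction. Relative to its condensin II counterpart, each condensin I subunit was lower in both Erastin libraries than in either control library. NCAPD2 to NCAPD3 differed by −0.90 between the groups, from 2.00 and 1.87 to 1.07 and 1.00. NCAPG to NCAPG2 differed by −0.63, from −2.23 and −2.31 to −2.75 and −3.05. NCAPH to NCAPH2 differed by −2.59, from −0.47 and 0.23 to −2.94 and −2.48, with the widest spread of the 6 pairs (larger SD 0.495). MKI67 to TOP2A, the 2 most strongly lowered genes, differed by −0.58, from 0.36 and 0.19 to −0.50 and −0.12. In none of the 6 pairs did the groups overlap, and each difference exceeded the larger SD. The exact two-sided permutation test over 2 against 2 libraries gave p = 0.333 for each pair, the smallest p it allows, and 0.333 after adjustment over the 6 pairs.

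**Figure D4:**
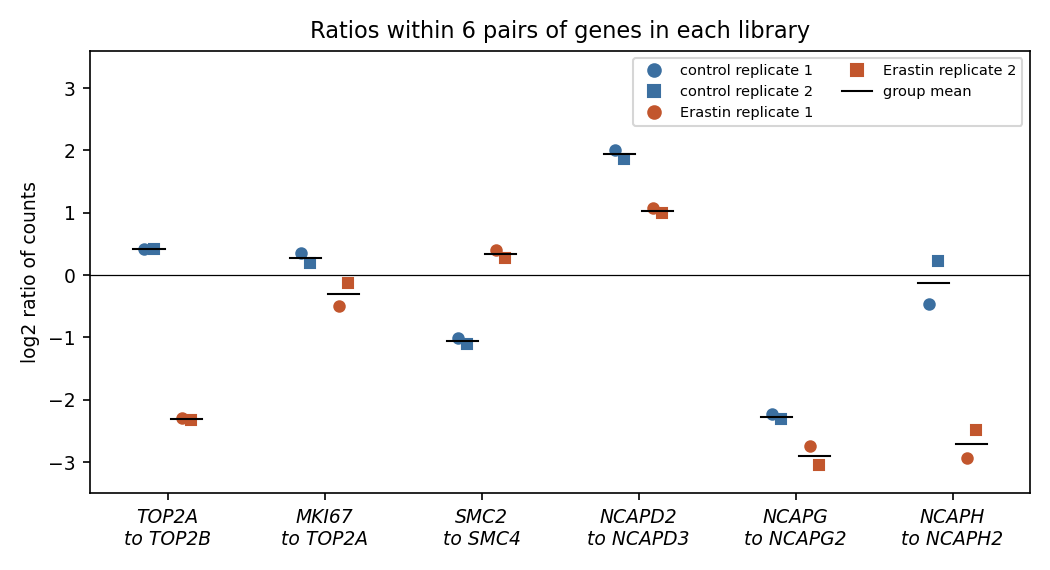
Log2 ratio of the counts of 2 genes in each library for 6 pairs, with circles for replicate 1, squares for replicate 2 and black lines for group means (n = 2). A value of 0 means equal counts. The Erastin libraries lie below the control libraries in 5 pairs and above them for SMC2 to SMC4.

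Summed per length, NCAPD2, NCAPG and NCAPH of condensin I had 181 and 189.9 TPM in control and 45.4 and 43.1 TPM in Erastin libraries. NCAPD3, NCAPG2 and NCAPH2 of condensin II had 172 and 166 TPM in control and 88.8 and 82.4 TPM in Erastin libraries. The transcripts particular to condensin I were therefore 1.05 and 1.14 times as abundant as those of condensin II in control libraries and 0.511 and 0.523 times in Erastin libraries. These sums do not allow for reads lost where genes share exons or sequence, so the control ratios, being near 1, set no order. SMC2 and SMC4 together had 160.1 and 176 TPM in control and 72.4 and 73.4 TPM in Erastin libraries.

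Genes that work with these 10 were described from lists drawn up with earlier results of these data known. Of 9 condensin partners and regulators, 4 were called downregulated and 0 upregulated, beside 9.34% and 6.24% of all tested genes, and the median of the 9 was −0.38 on the log2 scale. These 4 were the mitotic kinase genes PLK1 (−4.51), CDK1 (−2.97) and AURKB (−2.85) and the gene of cyclin B1, CCNB1 (−3.82). At the other end, PPP2R1A, a scaffold subunit of the phosphatase PP2A, rose by 0.64 (edgeR adjusted p = 5.41e-05) and PHF8, a histone demethylase gene, by 0.41 (edgeR adjusted p = 0.00177), both under the threshold on the fold change.

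Of 13 genes of the chromosome periphery and Ki-67 partners, 2 were called downregulated and 0 upregulated, beside 9.34% and 6.24% of all tested genes, with a median of −0.38. With glmTreat 1 was called downregulated, without PPP1CC (adjusted p = 0.32 from edgeR). KIF4A, a kinesin that acts on chromosome arms with condensin, fell by 2.80 on the log2 scale (edgeR adjusted p = 4.43e-09), and PPP1CC, a catalytic subunit of phosphatase PP1, by 1.09 (edgeR adjusted p = 1.33e-07). NIFK, which binds the forkhead-associated domain of Ki-67, had a log2 fold change of 0.32 (edgeR adjusted p = 0.0341). It did not pass in DESeq2 (adjusted p = 0.0946), in edgeR with no low-count filter (adjusted p = 0.0631) or without any 1 library (edgeR adjusted p from 0.059 to 0.143). PPP1CA, another PP1 catalytic subunit gene, rose by 0.32 (edgeR adjusted p = 0.0256), but had 0.17 without Erastin replicate 1 (edgeR adjusted p = 0.292) and 0.18 without control replicate 2 (edgeR adjusted p = 0.048).

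Of 9 other topoisomerase and adduct repair genes, 2 were called downregulated and 1 upregulated, beside 9.34% and 6.24% of all tested genes, with a median of −0.27. Without control replicate 2, TOP3A was also called upregulated. RMI2 and BLM, members of the complex that dissolves double Holliday junctions, fell by 2.63 and 1.87 on the log2 scale (edgeR adjusted p = 1.67e-07 and 1.28e-06). TDP2, which encodes the enzyme that removes stalled topoisomerase II from DNA ends, had 757 and 839 counts in control and 2388 and 2545 counts in Erastin libraries. Its log2 fold change was 1.64 ± 0.085 (SE, edgeR adjusted p = 3.10e-08), against the direction of both topoisomerase II genes. TOP1, the main type I enzyme, had a log2 fold change of −0.63, close to that of TOP2B. TOP3A, with a log2 fold change of 0.68 and a standard error of 0.64, did not pass the test (edgeR adjusted p = 0.414), but passed it in edgeR with no low-count filter (adjusted p = 0.00755). Its fold change was −0.11 without control replicate 1, −0.41 without Erastin replicate 2 and 2.62 without control replicate 2 (edgeR adjusted p = 0.712, 0.638 and 3.78e-16).

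Cohesin and the SMC5/6 complex are the other SMC complexes. Of their 11 genes, 2 were called downregulated and 0 upregulated, beside 9.34% and 6.24% of all tested genes, with a median of −0.43, whereas 6 of the 7 condensin genes were called downregulated, with a median of −1.98. This difference between lists was not tested, and with glmTreat 1 of the 11 genes was called downregulated, without NSMCE4A (adjusted p = 0.281 from edgeR). Of the condensin genes, NCAPD3 lost its call in the same setting (adjusted p = 0.534 from edgeR). NCAPH2, which is outside the 7, had a log2 fold change of −0.38 and was not called. NSMCE4A, a kleisin of SMC5/6, and RAD21, the kleisin of cohesin, fell by 1.19 and 1.16 on the log2 scale (edgeR adjusted p = 2.12e-05 and 5.19e-08). STAG1 rose by 0.68 (edgeR adjusted p = 4.45e-05), and NSMCE3, with 9 to 16 counts a library, had a fold change of 0.71 that did not pass the test (edgeR adjusted p = 0.42).

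**Figure D5:**
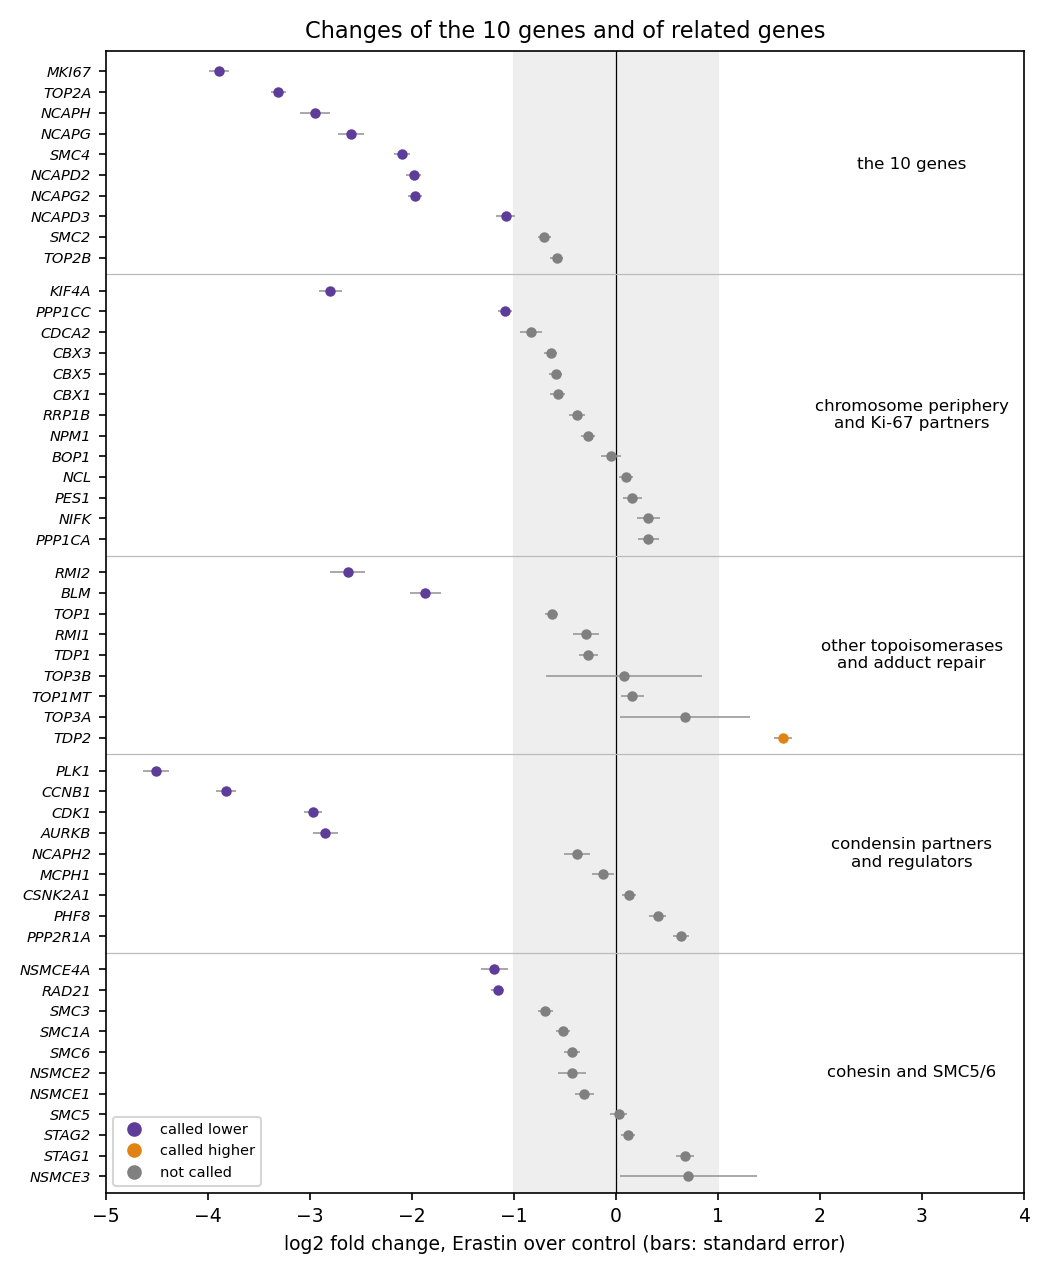
Log2 fold changes (Erastin over control) of the 10 genes and of 4 lists of related genes, with standard errors from edgeR as bars. The grey band spans changes under the threshold of 1; purple marks genes called lower and orange the gene called higher. The 10 genes reach from −3.89 to −0.58, and TDP2 at 1.64 is the only gene called higher.

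The genes most like MKI67, TOP2A and TOP2B across the 4 libraries were sought among 9498 genes whose mean reached 10 CPM. Likeness was the root mean square difference of the log2 of CPM plus 0.5, each gene centred on its own mean. The nearest to MKI67 were NUF2, KIF20A and NEK2 (differences of 0.111, 0.121 and 0.149), with log2 fold changes of −3.93, −4.35 and −4.39. Their Erastin means were only 2.65, 2.26 and 2 CPM, so the added 0.5 narrowed these differences, whereas the fold changes are those of edgeR. The nearest to TOP2A were PRR11, PRC1 and KIF14 (0.0192, 0.0281 and 0.0332), with log2 fold changes of −3.42, −3.31 and −3.42. The nearest to TOP2B were PHLDA1, PPIB and ATP1B3 (0.0129, 0.0132 and 0.0139), with log2 fold changes from −0.59 to −0.56.

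Of the 10 genes, 4 have a gene on the opposite strand whose start lies within 1000 bases of their own. Of these 4 neighbours, 0 were called downregulated, beside 9.34% of all tested genes, so the count alone does not set them apart from other genes. NCAPD2 fell by 1.98 on the log2 scale, whereas its neighbour MRPL51, a mitochondrial ribosomal protein gene, rose by 0.74 (edgeR adjusted p = 2.03e-05). SMC4 had −2.10, whereas IFT80, a gene of ciliary transport, fell by 0.55 (edgeR adjusted p = 0.00135). NCAPG fell by 2.60, whereas DCAF16 had 766 and 963 counts in control and 846 and 929 in Erastin libraries (log2 fold change 0.05, edgeR adjusted p = 0.787). NCAPD3 fell by 1.08, whereas VPS26B, a retromer gene, had 1493 and 1408 counts in control and 1378 and 1431 in Erastin libraries (log2 fold change −0.04, edgeR adjusted p = 0.742; 0.01 with library totals). These neighbours were chosen by position after the fold changes of the 10 genes were known.

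The counting ignored strand, and a read that fell on exons of more than 1 gene was not counted. Exons of 5 of the 10 genes overlap no other gene (MKI67, TOP2A, SMC2, NCAPH and NCAPG2). Of these 5, 4 were called downregulated, beside 9.34% of all tested genes. For NCAPG, 33.1% of the exonic bases overlap LCORL on the other strand. SMC4 shares 18.5% with TRIM59, a gene of 158 and 194 counts in control and 63 and 68 in Erastin libraries, and 7.18% with IFT80. NCAPD2 shares 7.49% with MRPL51, NCAPD3 shares 5.1% with JAM3, and TOP2B shares 0.463% with RARB. Among stretches of 31 bases taken along each longest transcript, at most 6.15% recur in transcripts of other genes, for NCAPD2. The next were 5.53% for NCAPG, whose other carriers are the pseudogenes NCAPGP2 and NCAPGP1, and 0.583% for NCAPH. TOP2A shared no such stretch with TOP2B or any other gene. NCAPH2, outside the 10 genes, shared 24.9%.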

How the data were processed

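The authors aligned RNA-seq reads of 4 U87 libraries to hg38 (HISAT2 2.1.0 in the submitters' processing notes) and deposited raw counts of reads per gene. Per its header the table was written by featureCounts 2.0.3 with Ensembl release 90, whereas the methods name htseq-count; the 2 reads of a pair were counted singly, without strand, and ambiguous reads were left out. The deposited values were checked for the decimals of estimated counts, and 0 values changed on rounding. Symbols came from GENCODE release 44 and promoters from RefSeq.

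Counts were tested with edgeR 4.0.16 under R 4.3.3 (TMM, low counts removed by filterByExpr at a minimum of 10, quasi-likelihood test without a block, Benjamini-Hochberg adjustment over 16751 genes). Calls needed an adjusted p under 0.05 and an absolute log2 fold change of 1 or more, the thresholds of the study's methods. CPM used TMM-scaled library sizes, and TPM the deposited exonic lengths. Totals rest on reads without molecular identifiers, so they overstate the precision. The fit was tested on simulated data: of 200 genes changed among 16612 tested, edgeR recovered 200 and called 2 others, and DESeq2 1.42.0 recovered 196. With 2 libraries a group, an exact permutation p cannot fall below 0.333.

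The genes and lists were chosen with earlier results of these data known. Named are the 10 genes, NCAPH2, the 2 lowest and 2 highest fold changes of each list, and the 3 genes nearest in pattern to MKI67, TOP2A and TOP2B (log2 of CPM plus 0.5). CDK1, AURKB, TOP1, the neighbours, the overlapping genes and the markers are named beside this rule. Alternatives were DESeq2, RLE factors, library totals, other low-count filters, a replicate block, halved and thinned counts, glmTreat and each library left out. The 14 ChIP-seq and HiChIP samples of the series were not analysed here.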

Additional observations from a re-analysis of the deposited data

How the results depend on the processing

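Outside edgeR's glmTreat, each of the 10 genes kept its direction and an adjusted p under 0.05 under the alternatives run. With glmTreat, which asks for a change beyond 1, NCAPD3 had −1.08 with an adjusted p of 0.534, so that 7 of the 10 genes were called, while TOP2B and SMC2, under the threshold before, had an adjusted p of 1. The same setting called 1 gene lower in the periphery list, 1 in the cohesin and SMC5/6 list, and 748 lower and 377 higher genes in all, beside 1564 and 1046. Leaving out 1 library at a time gave log2 fold changes from −4.04 to −3.76 for MKI67, −3.36 to −3.27 for TOP2A, −0.61 to −0.55 for TOP2B and −0.71 to −0.70 for SMC2, and 1 to 2 genes of the other topoisomerase list were called higher. The second was TOP3A without control replicate 2. TOP3A ranged from −0.41 to 2.62 (−0.11 without control replicate 1), DCAF16 from −0.10 to 0.20 and VPS26B from −0.10 to 0.01, and VPS26B had 0.01 with library totals. The cause was not tested. On the strand of the gene alone, 1 promoter had a CCAAT box. The replicate numbers carry no stated pairing, and libraries of the same number deviated with a correlation of 0.0293 over the tested genes. A value over all genes does not show whether single genes shared an effect of the replicate number, which was not tested. TOP3A was lower in replicate 1 of both groups (39 against 266 and 111 against 380 counts). MKI67 was higher in control replicate 1 but lower in Erastin replicate 1. With the replicate block 8 and 10 genes were again lower by the 2 rules, 1568 and 1039 genes were called lower and higher in all, MKI67 had −3.89, and no call of the 10 genes changed. TOP3A had 0.92 with it (adjusted p = 0.00362). Of 710 values recomputed under the alternatives, 686 kept their direction and side of the threshold or, for counts and values with no test, stayed close to the reported one. For glmTreat this sets each gene against its call at the fold threshold, since genes under that threshold cannot be expected to pass. Closeness of counts was taken loosely. CHR letters in 6 genes beside 9 were taken as close, whereas 1 gene beside 2 called lower in the periphery list was taken as moved.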

Other observations

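TOP3A, which encodes a type IA topoisomerase, had 39 counts in control replicate 1, 266 in control replicate 2, 111 in Erastin replicate 1 and 380 in Erastin replicate 2. The counts of a group differed more than the groups did. In edgeR with no low-count filter its log2 fold change was 0.68 with an adjusted p of 0.00755, and with the filter 0.68 with an adjusted p of 0.414.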
